A study of Homo sapiens with 32 samples.

Results

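The genes described here encode the parts of BMP and TGF-beta signaling: the ligands, their receptors, the SMAD proteins, the ID genes they control, the proteins that store latent TGF-beta and the secreted antagonists. They were chosen by a rule on gene symbols, which took 61 of the 28278 gene symbols of the count tables. The same 61 genes were found by identifier among the 60107 genes of the knockdown table. By role they were 12 ligands of the TGF-beta, activin, inhibin and nodal-like kind, 15 BMP and GDF ligands, 7 type I and 4 type II receptors, 1 co-receptor, 5 receptor SMADs, 1 common SMAD, 2 inhibitory SMADs, 4 ID genes, 4 latent TGF-beta binding proteins, 5 secreted antagonists and BMP1, a protease that carries a BMP name but trims procollagen.

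RNA was sequenced from Ewing sarcoma cell lines, in which the loss of the cohesin subunit STAG2 was compared with that of its paralog STAG1 and with that of the Polycomb repressive complex 2 (PRC2) subunits EZH2 and SUZ12. Experiments 1, 2 and 3 used A673 clones, and experiment 4 a short knockdown in A673 cells. The controls of experiments 1 to 3 were parental A673 cells (genotype WT, 1 library in each) and an unedited clone with an inducible Cas9 at the AAVS1 locus (genotype iCas9, here WT clone, with 2, 2 and 1 libraries). Single pairs of libraries came from SK-N-MC and A4573 cells, and the samples were bulk RNA, in which fewer expressing cells and less RNA per cell cannot be told apart.

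The knockout (KO) clones were all made from the WT clone. They were iCas9+STAG2ko (2 libraries in experiment 1 and 3 in experiment 2), iCas9+EZH2ko and iCas9+SUZ12ko (3 each, experiment 2) and iCas9+STAG1ko (3, experiment 3). In experiment 4, cells of genotype siSTAG2 received siRNA against STAG2, and those of genotype WT were mock transfected (siC), with 3 libraries each. SK-N-MC cells were iCas9 or iCas9+STAG2ko, and A4573 cells, which lack STAG2, were iCas9 or, after repair of the gene, iCas9 +STAG2KI (KI). KO libraries are named by the numbers they have in the count tables, which for experiments 1 and 3 are not the clone numbers of the sample labels. Libraries of A673 clones held 15734628 to 20663679 counts, those of the SK-N-MC and A4573 pairs 29322507 to 32261248, and the knockdown 6852340 to 8184632 recovered reads.

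BMP and TGF-beta ligands are secreted dimers that bring together type I and type II receptor kinases. The type I receptor then phosphorylates receptor SMADs, which join SMAD4 and enter the nucleus, where they switch on genes such as the ID family and their own inhibitors SMAD6 and SMAD7. In mesenchymal cells these pathways are known for their part in bone formation and in the making of extracellular matrix.

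Unless another unit is named, values are CPM (counts scaled to a common library size) after trimmed-mean scaling, and those of the knockdown are the deposited normalized reads. STAG2 measured 293, 301 and 281 in the controls of experiment 1 (the parental library last) and 42.2 and 183 in the libraries labelled STAG2 KO 5 and 24. In experiment 2 it measured 295.5, 358.5 and 254.6 in the controls and 68.9, 59.2 and 63.4 in the libraries labelled STAG2 KO 3, 5 and 2. All 5 KO libraries lay under all 6 controls, and library 24 kept the most STAG2 RNA. After knockdown it measured 180, 144 and 153 normalized reads (libraries 2, 1 and 3), against 1068, 1090 and 992 with mock transfection (libraries 1, 3 and 2). EZH2 measured 171, 176 and 193 in the controls of experiment 2 and 45.5, 54.9 and 28.3 in EZH2 KO, and SUZ12 59.9, 66.6 and 60.5 in those controls and 15.8, 11.3 and 20.5 in SUZ12 KO. STAG1 measured 69.2 (parental) and 57.4 in the controls of experiment 3 and 61.1, 14.99 and 33.0 in the libraries labelled STAG1 KO 1, 5 and 7. Thus, the library labelled STAG1 KO 1 was as high in STAG1 RNA as its controls, while every other KO library was under its own controls in the targeted gene. STAG2 measured 293 with and 184 without an intact gene in the SK-N-MC pair, and measured 34.1 in the A4573 library without STAG2 and 86.9 in the KI library. The A4573 libraries also differed in EZH2, with 119.8 without STAG2 and 42.9 in the KI library, so that this pair differed in more than STAG2. The part of EZH2 in the differences of this pair was not tested.

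A673 cells were checked against marker genes of Ewing sarcoma and of other cell types. The 10 Ewing sarcoma genes, led by CCND1, summed to 4328, 4351 and 3828 in the controls of experiment 1 and to 2572 and 3367 in STAG2 KO. In experiment 2 they summed to 3370, 3316 and 3533 in the controls, 2542, 2525 and 2468 in STAG2 KO, 3577, 3851 and 3376 in EZH2 KO and 3764, 3451 and 3753 in SUZ12 KO, and in experiment 3 to 4671 and 5495 in the controls and 4698, 5071 and 5725 in STAG1 KO. The sum, in which CCND1 has the largest part, was lower in all STAG2 KO libraries than in the controls beside them, while NR0B1, NKX2-2, PAX7 and LIPI were higher in those of experiment 1. CD99, one of the 10, had 0 counts in every library of the count tables.

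The 6 fibroblast or stroma genes, led by COL1A2, summed to 1991, 2016 and 1539 in the controls of experiment 1 and to 596 and 258 in STAG2 KO. In experiment 2 they summed to 2511, 2247 and 1066 in the controls, 509, 571 and 754 in STAG2 KO, 1239, 1102 and 803 in EZH2 KO and 807, 801 and 590 in SUZ12 KO. In experiment 3 they summed to 2124 and 2525 in the controls and 3866, 3651 and 3641 in STAG1 KO. The sum was lower in STAG2 KO and SUZ12 KO and higher in STAG1 KO than in the controls beside them. Single genes departed from it, since COL1A1 was not lower in SUZ12 KO and LUM was lower in STAG1 KO.

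The 4 epithelial genes, led by KRT18, summed to 417, 361 and 371 in the controls of experiment 2, 959, 671.5 and 917 in EZH2 KO, 423.5, 1235 and 916 in SUZ12 KO and 211, 97.3 and 213 in STAG2 KO, so that the sum was higher in all PRC2 KO and lower in all STAG2 KO libraries. KRT8 was higher in every PRC2 KO library, but KRT18 in SUZ12 KO 1 was lower than in the controls. In experiment 1 they summed to 199, 196 and 241 in the controls and 211 and 367 in STAG2 KO, and in experiment 3 to 149.5 and 185 in the controls and 419, 252 and 459 in STAG1 KO. The defining genes EPCAM and CDH1 were at most 2.25 and 0.451 in any clone library.

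In the knockdown the Ewing sarcoma genes summed to 26835, 27055 and 26155 normalized reads with mock transfection and to 21049, 20396 and 21281 with siSTAG2. CD99 measured 6618, 6707 and 5944 and then 3908, 3723 and 3819. The stroma genes summed to 4438, 4367 and 3862 and then to 1705, 1697 and 1655, and the epithelial genes to 3929, 3527 and 3882 and then to 2914, 3211 and 2932. All 3 sums were lower after knockdown, although NR0B1 was higher in every knockdown library and NKX2-2, LIPI and KRT8 overlapped mock transfection. In the SK-N-MC pair the Ewing sarcoma, stroma and epithelial genes summed to 3035, 749 and 471 with STAG2 and 2478, 209 and 206 without, and in the A4573 pair to 3762, 139.7 and 2.64 with STAG2 and 2196, 90.7 and 0.797 without. Single genes departed from the sums of both pairs. Without STAG2, NR0B1, PAX7, CCK, DCN and EPCAM were among the genes that were higher in SK-N-MC cells. In A4573 cells STEAP1, LIPI, CCK and COL3A1 were higher without STAG2. The part of these markers in the results given here was not tested.

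To see which parts of the pathway A673 cells express, levels were ranked per kilobase of exons (RPKM) over the 8 control libraries. Of the 61 genes, 33 had a mean over 1 RPKM, 15 had at most 3 counts in every control library, and BMP3, GDF1 and GDF2 had 0 counts in all 22 clone libraries. GDF6, a BMP-like ligand of skeletal patterning, had the highest level of all, 131.9 ± 32.3 RPKM (SD, n = 8), with 80.8 to 176 across the controls. BMP7, a ligand of kidney and bone development, followed among the BMP and GDF ligands with 8.83 ± 1.74 RPKM, then BMP5 with 2.299 ± 1.18. Of the ligands of the other branch, TGFB1 led with 38.2 ± 9.39 RPKM, ahead of GDF11, a relative of myostatin, with 9.15 ± 1.75. GDF15, a stress-induced factor, came next with 6.73 ± 9.16 RPKM. Its controls spread from 0.212 to 21.7 RPKM, so that its place beside GDF11 differed between libraries.

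Receptors of both branches were present. The type I receptors for BMPs and activins, BMPR1A and ACVR1B, had 12.7 ± 0.668 and 9.13 ± 1.39 RPKM, ahead of ACVR1 with 2.39 ± 0.242 and the TGF-beta receptor TGFBR1 with 1.30 ± 0.524 (SD, n = 8). Among type II receptors TGFBR2 had 7.42 ± 1.44 RPKM, BMPR2 6.37 ± 1.49 and ACVR2A 3.85 ± 0.846, so that the first pair overlapped. The co-receptor TGFBR3 had 1.37 ± 0.607. Among the SMADs, SMAD5 had 14.2 ± 1.49, SMAD3 7.62 ± 2.35, SMAD9 6.56 ± 2.42, the common SMAD4 5.73 ± 0.295, SMAD6 5.09 ± 1.80 and SMAD7 2.81 ± 0.623 RPKM. Transcripts of the ID genes, which encode inhibitors of bHLH factors, were abundant, with 56.2 ± 15.4 RPKM for ID2, 45.5 ± 26.9 for ID3 and 18.8 ± 4.92 for ID4. LTBP4 (24.7 ± 17.3), LTBP3 (9.54 ± 3.82) and LTBP1 (0.860 ± 0.404) led the proteins that hold latent TGF-beta in the matrix. BMP1 had 4.27 ± 0.935 RPKM. The secreted antagonists were low, with GREM1, FST and NOG at 0.0698, 0.0458 and 0.0280 RPKM. GREM1 had 28, 49 and 51 counts in the controls of experiment 2 and at most 6 in the other controls.

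**Figure D1:**
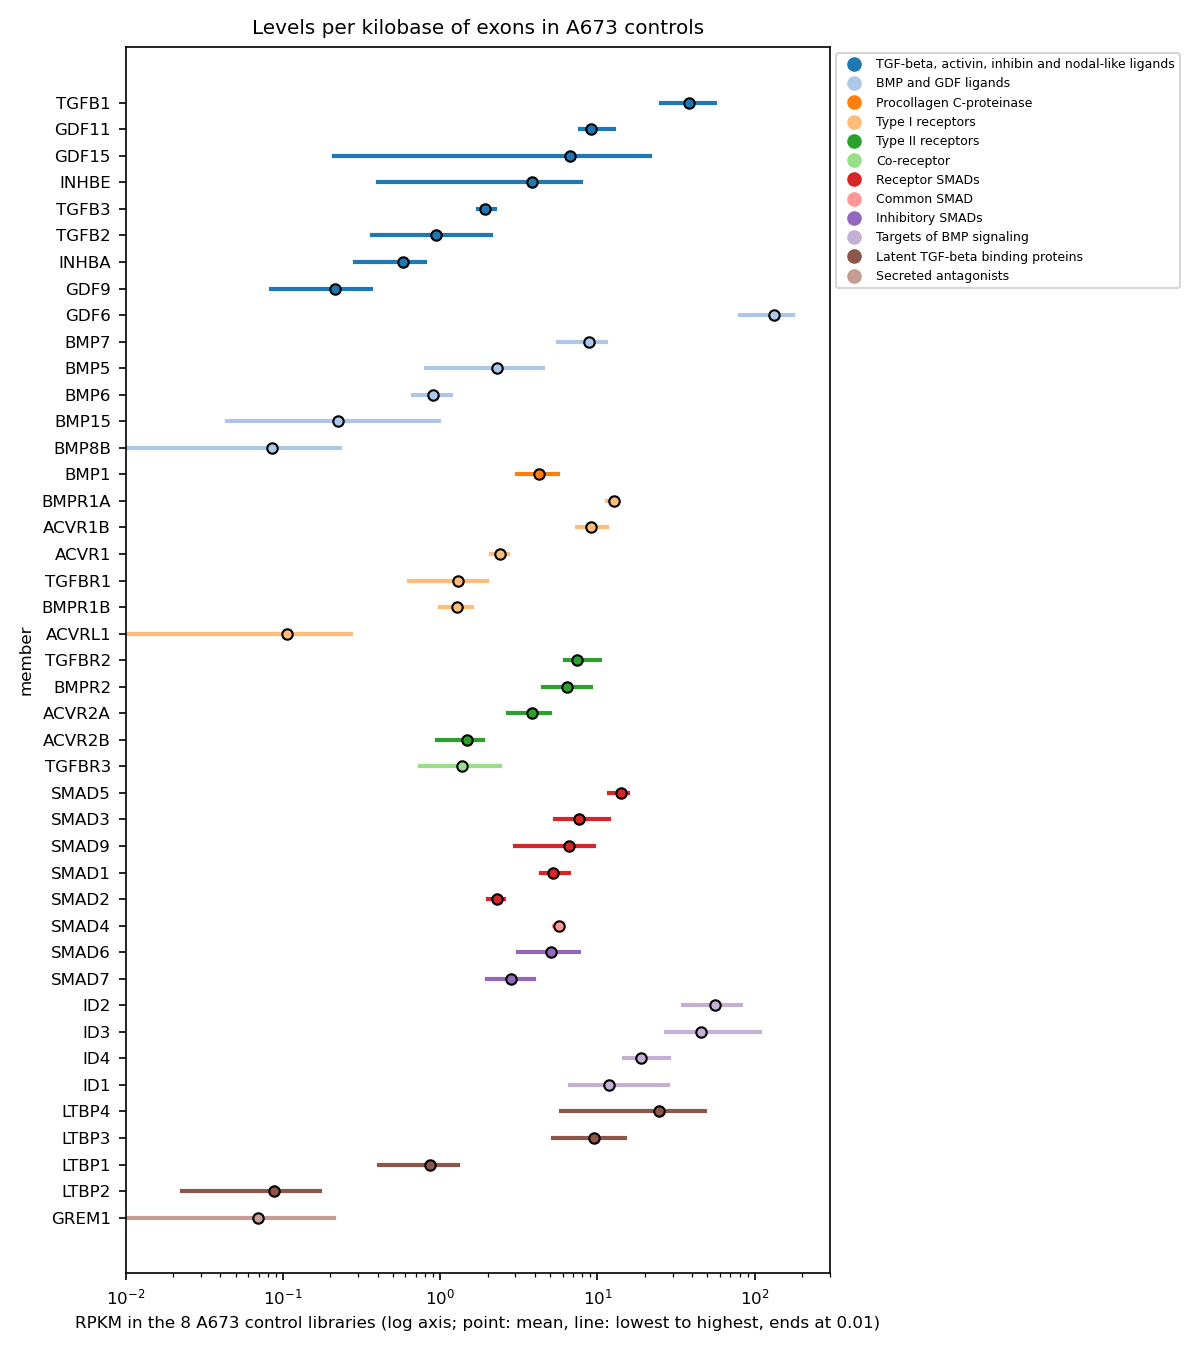
Level per kilobase of exons (RPKM, log axis) of each member over 0.05 RPKM in the 8 A673 control libraries, coloured by role, with the mean as a point and a line from the lowest to the highest library. GDF6 had the highest mean (131.9 RPKM), ID2, ID3 and TGFB1 followed, and of the secreted antagonists only GREM1 (0.0698 RPKM) reached the plot.

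In the other cell lines GDF6 and TGFB1 were again abundant, and further ligands were seen beside them. In SK-N-MC cells with STAG2, GDF6 measured 92.8 RPKM, TGFB1 79.4, BMP2 15.7, BMP6 11.7, BMP7 0.0168 and TGFBR2 0.598, while ID3 measured 290 and ID2 182. In A4573 cells with STAG2 restored, the activin-like INHBE measured 46.3 RPKM, GDF6 27.4, TGFB1 21.2 and BMP7 10.6. These are single libraries without replicates.

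Because the controls hold parental cells and the WT clone from which all KO clones derive, these lines were compared first. Of 42 members tested, 4 were higher in the WT clone (1.76% of all genes were) and 0 were lower (0.960% of all genes), by edgeR's quasi-likelihood test at an adjusted p under 0.05. At an unadjusted p under 0.05 there were 11 members, and DESeq2 called 4. BMP5 measured 8.44, 10.8 and 18.0 (lowest, median and highest of 5) in the WT clone and 3.21, 3.37 and 8.25 in parental cells, and LTBP1 4.38, 8.59 and 9.57 against 3.01, 3.27 and 3.71. Both were higher in the clone without overlap (log2 1.45 ± 0.16 (SE), adjusted p = 0.00333, and 1.15 ± 0.19, adjusted p = 0.014). GDF15 (log2 1.96) and GDF6 (0.47) were also called but overlapped. The count was 1 without any single control library of experiment 2 and 2 without either WT clone library of experiment 1. Thus, a lower LTBP1 in KO clones is seen beside a WT clone that itself was higher than its parent.

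The first comparison asked which of these genes depend on STAG2. In STAG2 KO cells the ligand BMP7 was nearly lost, BMP6 rose about 4-fold, the activin subunit INHBA was nearly lost, and the inhibitory SMAD6 fell. The antagonist NOG rose from the detection floor. The ID genes, targets of BMP signaling, passed the test in neither direction over both experiments together. Of 40 members tested, 3 were higher (6.67% of all genes) and 6 lower (5.76% of all genes), with 18 at an unadjusted p under 0.05. The count of 9 was 18 in experiment 1 alone, where 3663 genes were called in all. In that experiment the WT clone libraries were nearly alike, with 138 and 139 for TGFB1 and 257.6 and 254.9 for LTBP4. Those of experiment 2 differed more, with 117 and 83.3 for TGFB1 and 66.3 and 47.7 for LTBP4. Over both experiments the share of higher calls was 7.5% and that of lower calls 15%, but NOG could enter the test only through the KO libraries and INHBA only through the controls, so that these shares are not read against the background. The median log2 fold change was -0.02 over the members and 0.04 over all genes tested.

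BMP7 is encoded on chromosome 20 (57168753 to 57266641 on GRCh38, reverse strand). It measured 61.2, 57.1 and 45.3 in the controls of experiment 1 and 1.09 and 0.225 in STAG2 KO 5 and 24. In experiment 2 it measured 51.2, 49.7 and 30.3 in the controls and 0.787, 1.04 and 3.98 in STAG2 KO 3, 5 and 2. Every KO library was far under every control, and the parental library was the lowest control in each experiment. The log2 fold change was -5.14 ± 0.56 (adjusted p = 0.000269, lower in 5 of 5 libraries), with -6.36 in experiment 1 alone and -4.46 in experiment 2 alone.

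BMP6, a close relative of BMP7 encoded on chromosome 6 (7726099 to 7881728, forward strand), moved the other way. It measured 3.31, 3.21 and 4.15 in the controls of experiment 1 and 22.0 and 8.55 in STAG2 KO 5 and 24. In experiment 2 it measured 2.72, 2.55 and 3.27 in the controls and 10.0, 14.5 and 10.5 in STAG2 KO 3, 5 and 2. No KO library reached down to a control. The log2 fold change was 2.11 ± 0.25 (adjusted p = 0.000491), with 2.11 and 2.09 in experiments 1 and 2 alone. Of its 3784 exon bases 419 are shared with genes of the opposite strand, whose reads cannot be told apart in these non-directional libraries. Neither the BMP7 nor the BMP6 call was lost when any of the 11 libraries was left out.

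**Figure D2:**
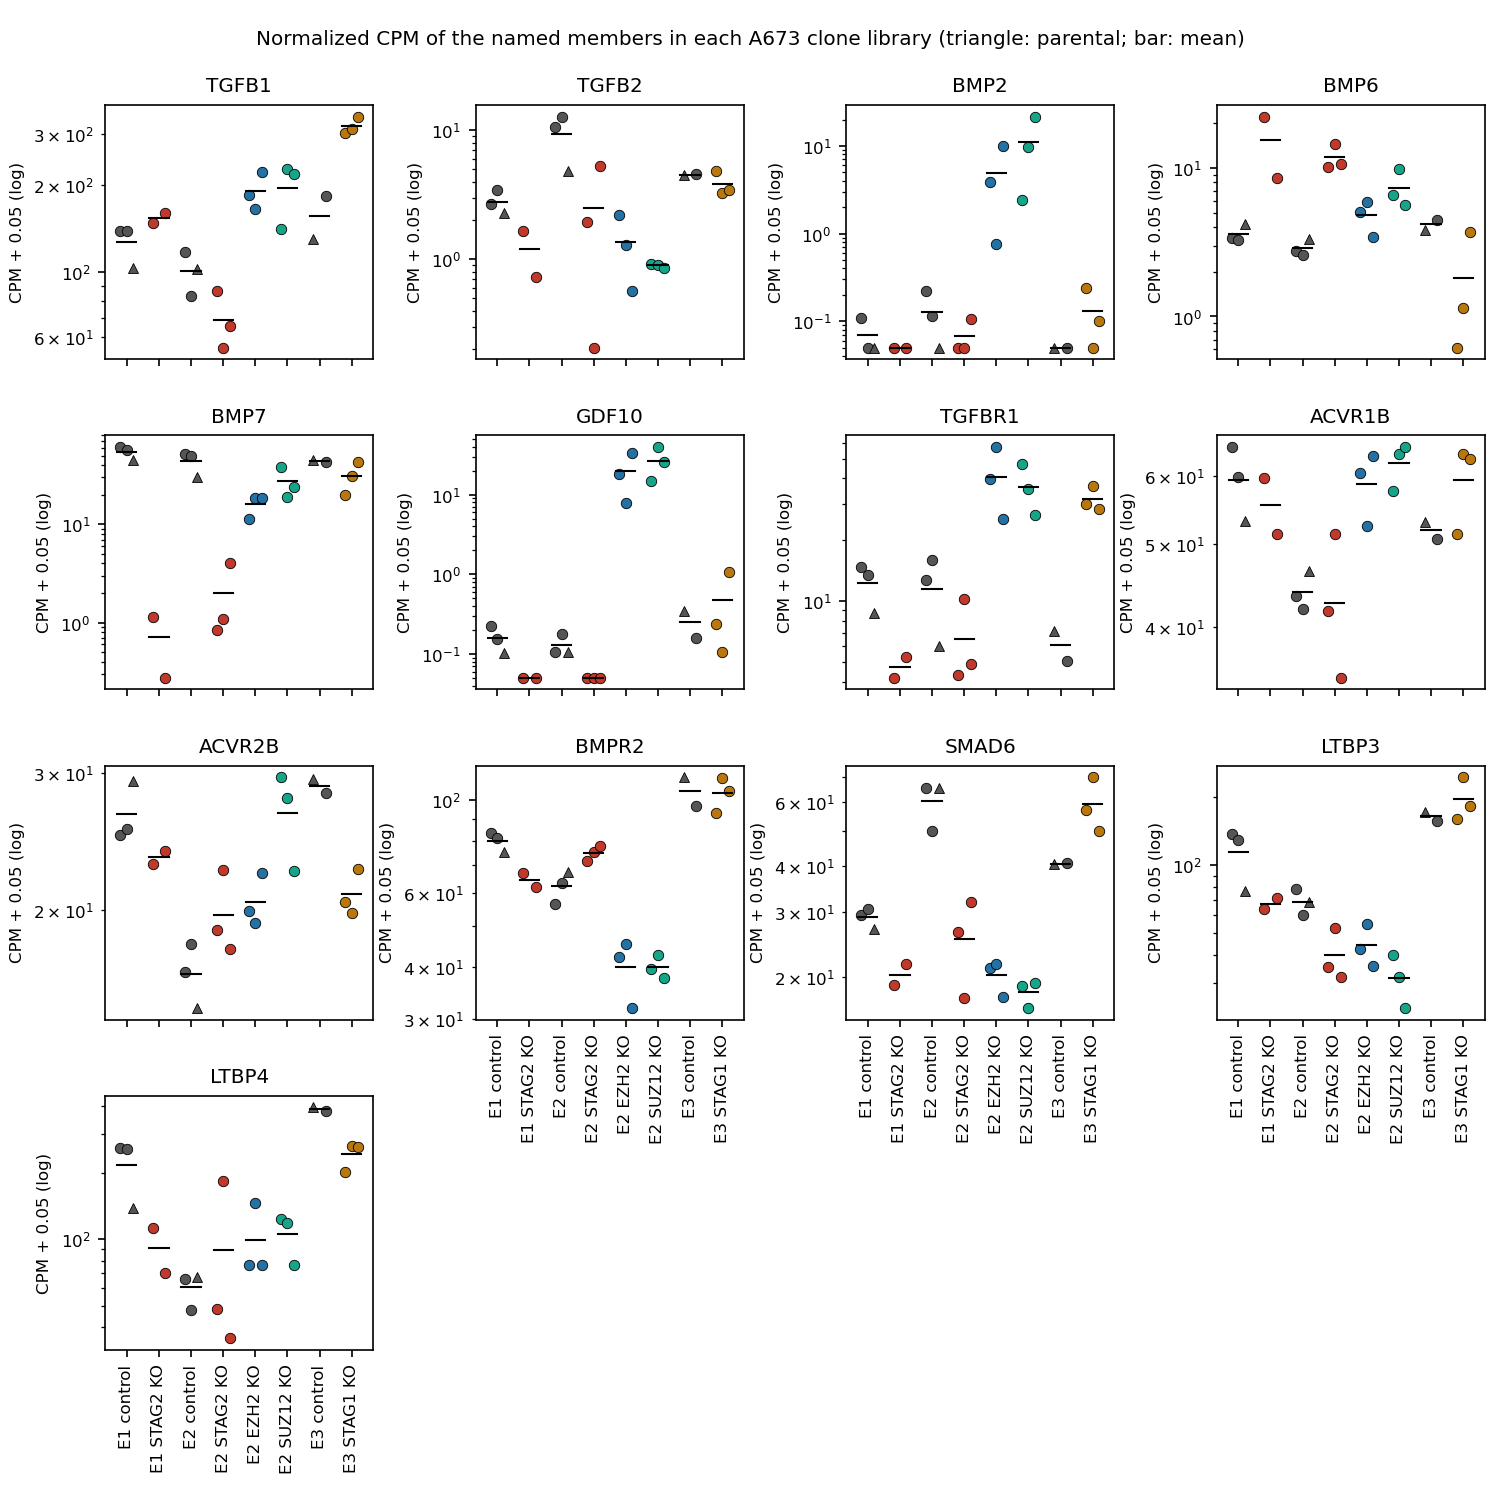
Normalized CPM plus 0.05 (log axes) of the named members in each A673 clone library, grouped by experiment (E1, E2 and E3) and genotype, with parental libraries as triangles and group means as bars. BMP7 lies under 4 CPM in all 5 STAG2 KO libraries and over 30 CPM in their controls, GDF10 is high in the EZH2 KO and SUZ12 KO libraries alone, and TGFBR1 is high in the EZH2, SUZ12 and STAG1 KO libraries.

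Among the ligands of the other branch, INHBA, which forms activin A, measured 2.38, 4.38 and 6.61 (lowest, median and highest) in the 6 controls and 0 to 0.221 in STAG2 KO, with 0 to 4 counts in each KO library. The groups were apart (adjusted p = 0.000255). TGFB1 measured 139, 138 and 104 in the controls of experiment 1 and 148 and 160 in STAG2 KO, against 117, 83.3 and 103 and then 86.1, 55.1 and 65.2 in experiment 2. It was therefore not lower in both experiments, and the fit gave -0.14 (adjusted p = 0.687). The other 6 tested ligands of this kind passed the test in neither direction, and GDF6, the highest ligand, missed it at log2 -0.73 (adjusted p = 0.0541).

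Of the 10 tested receptors and co-receptors none was called. TGFBR1 measured 14.6, 13.3 and 8.71 in the controls of experiment 1 and 4.14 and 5.23 in STAG2 KO, and 12.6, 15.8 and 5.93 against 4.30, 10.2 and 4.86 in experiment 2. The KO libraries lay low but overlapped the parental library of experiment 2 (log2 -1.02, adjusted p = 0.0757). DESeq2 called 12 of all members.

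SMAD6, which blocks BMP receptor signaling and is itself induced by it, lies on chromosome 15 (66702236 to 66782849, forward strand). It measured 29.5, 30.6 and 26.8 in the controls of experiment 1 and 18.9 and 21.5 in STAG2 KO. In experiment 2 it measured 65.4, 49.7 and 65.4 in the controls and 26.4, 17.4 and 31.8 in STAG2 KO 3, 5 and 2. KO libraries were under the controls within each experiment, although the controls of experiment 1 reached the KO values of experiment 2. The log2 fold change was -0.89 ± 0.18 (adjusted p = 0.00827), with -0.52 in experiment 1 alone and -1.21 in experiment 2 alone. SMAD9 rose (log2 1.05 ± 0.30, adjusted p = 0.0429) and SMAD3 fell (-0.48 ± 0.14, adjusted p = 0.0444), both with groups that overlapped over the 2 experiments together. Within each experiment the KO libraries of SMAD3 lay under the controls, with 55.7 and 53.9 against 68.0 or more in experiment 1 and at most 49.3 against 53.7 or more in experiment 2. SMAD3 lost its call without any of 10 of the 11 libraries, all but STAG2 KO 5 of experiment 2 (adjusted p up to 0.0923), and also when both WT clone columns of experiment 1 were added up, with the WT clone as the only control, without the experiment term and in experiment 2 alone (up to 0.211).

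NOG, a secreted protein that binds BMPs, measured 0.978 to 4.04 in STAG2 KO and 0 to 0.277 in the controls (adjusted p = 0.00154). LTBP1 fell from 3.27 to 9.57 in the controls to 0 to 1.46 (adjusted p = 0.00799). LTBP3 measured 32.0, 52.6 and 71.2 (lowest, median, highest) against 59.9, 77.4 and 137 in the controls (log2 -0.73 ± 0.18, adjusted p = 0.0232), and this call was lost without control 1 or STAG2 KO 3 of experiment 2, and without either WT clone library or STAG2 KO 5 of experiment 1 (adjusted p up to 0.066). It was also lost when both WT clone columns of experiment 1 were added up and counted once, without the experiment term and in either experiment alone (up to 0.117). ID3 measured 45.0, 45.9 and 40.6 in the controls of experiment 1 and 107.5 and 123 in STAG2 KO, and 56.9, 46.9 and 162 (parental) in the controls of experiment 2 and 87.0, 102 and 97.9 in STAG2 KO. Only the parental library of experiment 2 was above the KO libraries, and ID1 was likewise highest there, with 34.7 against 12.6 to 22.2 in STAG2 KO. ID4 measured 57.1, 62.5 and 60.2 and then 26.1 and 28.2 in experiment 1, and overlapped in experiment 2. The ID genes gave log2 values of 0.45 for ID1, 0.12 for ID2, 0.74 for ID3 and -0.52 for ID4 (adjusted p from 0.171 to 0.686). Without STAG2 KO 5 of experiment 2 the count of called members was 16.

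The knockdown showed what 3 libraries with a short loss of STAG2 had in common with these clones. Of 32 members tested, 1 was higher (9.54% of all genes) and 9 were lower (11% of all genes), and limma's moderated test gave medians of -0.11 for the members and 0.01 for all genes. The lower calls were 28.1% of the members tested. This share is not read against the background, because TGFB2 could enter the test only through mock transfection. Of the 10 called members 6 were called among genes with a mean of at least 50 reads (2170 genes in all), without INHBA, TGFB2, TGFBR1 and TGFBR3. The lower members were receptors (TGFBR1, TGFBR2 and TGFBR3), ligands (BMP7, TGFB2 and INHBA), SMAD3, SMAD6 and LTBP3.

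TGFBR2, the type II receptor that binds TGF-beta, measured 99.1, 102 and 100.4 normalized reads with mock transfection and 52.9, 51.0 and 54.1 after knockdown. It fell by 0.92 on the log2(value + 1) scale (± 0.15, adjusted p = 6.25e-05), with no overlap. TGFB2 measured 27.6, 30.2 and 33.5 and then 5.56, 9.99 and 10.6 (log2 -1.73 ± 0.31, adjusted p = 0.000221). INHBA, TGFBR3 and TGFBR1 fell too, by 1.66, 0.90 and 0.97 (adjusted p = 3.38e-05, 0.00121 and 0.0307). The TGFBR1 call was lost without siC 1, siC 2, siSTAG2 1 or siSTAG2 2 (adjusted p up to 0.144), and also without the filter on low values (0.0833).

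BMP7 measured 460, 541 and 541 normalized reads with mock transfection and 417, 394 and 446 after knockdown. The groups were apart, but the change was small (log2 -0.29 ± 0.08, adjusted p = 0.011), and it was lost without siC 3 or siSTAG2 1 (adjusted p up to 0.0616). BMP6 measured 5.72, 9.38 and 7.87 and then 12.1, 11.1 and 13.5, all higher after knockdown, and was too low to be tested. GDF11 was the member that rose, with 578, 537 and 597 and then 712, 701 and 727 (log2 0.32 ± 0.07, adjusted p = 0.00121).

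SMAD3, which carries the TGF-beta and activin signal, measured 450, 433 and 414 and then 318, 329.5 and 332 normalized reads, a fall in every library (log2 -0.40 ± 0.08, adjusted p = 0.000476). SMAD6 measured 215, 202 and 195 and then 143, 169 and 162 (log2 -0.37 ± 0.11, adjusted p = 0.0139), and LTBP3 189, 195 and 187 and then 137, 163 and 135 (log2 -0.39 ± 0.11, adjusted p = 0.012). Both were apart from mock transfection. Without siC 1 or siSTAG2 2 SMAD6 lost its call (adjusted p up to 0.088), and without siSTAG2 2 or 3 so did LTBP3 (adjusted p up to 0.0621). ID1, ID2 and ID3 were higher in all 3 knockdown libraries than in mock transfection but passed the test in no case (log2 0.25, 0.12 and 0.16, adjusted p from 0.0925 to 0.186). The difference between the knockdown and the clones was not tested, because the tables were normalized separately.

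**Figure D3:**
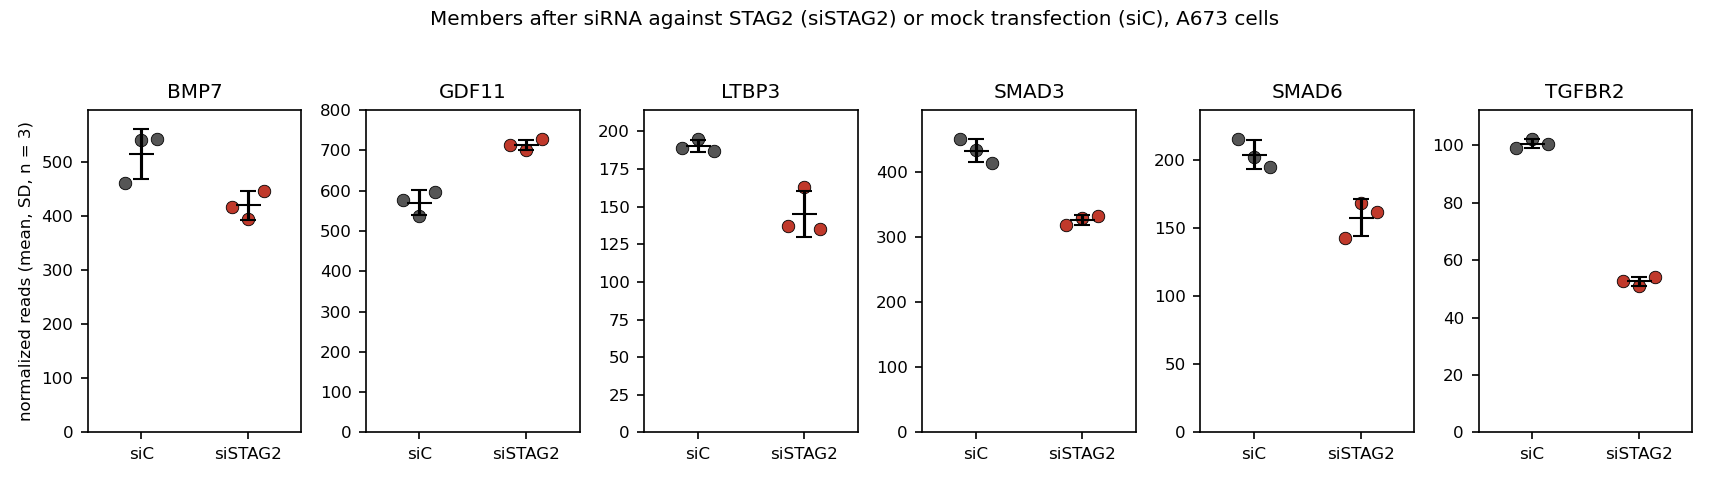
Normalized reads of the named members in the 3 libraries with mock transfection (siC, grey) and the 3 with siRNA against STAG2 (siSTAG2, red), with mean and SD, on linear axes from 0. TGFBR2 falls from about 100.4 to 52.9 reads, while BMP7, SMAD3, SMAD6 and LTBP3 fall by less and GDF11 rises, each without overlap.

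Loss of PRC2, which places the repressive mark H3K27me3, was examined in experiment 2, where all knockouts share the same 3 controls. In EZH2 KO cells 9 of 47 members tested were higher (12% of all genes) and 3 lower (3.69% of all genes). In SUZ12 KO cells 13 were higher (14.7% of all genes) and 4 lower (5.87% of all genes). The BMP ligands GDF10, BMP2, BMP4 and BMP8B and the endothelial BMP receptor ACVRL1, with at most 3 counts in each control of experiment 2, were higher in both, TGFB1 doubled, TGFBR1 rose more than 3-fold and SMAD6 fell. The higher calls made up 19.1% and 27.7% of the members tested, but GDF10, BMP2, BMP4, BMP8B, ACVRL1, NOG and CHRD could enter the test only through libraries in which they were high, so these shares are not read against the background. The medians were -0.05 and 0.00 for the members and 0.04 and 0.01 for all genes.

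GDF10, an atypical BMP family ligand also known as BMP3B, lies on chromosome 10 (47300197 to 47313577, forward strand). In experiment 2 it measured 0.0566, 0.128 and 0.0554 in the controls, 18.0, 7.87 and 33.2 in EZH2 KO and 14.7, 39.7 and 25.4 in SUZ12 KO, and 0 in all 3 STAG2 KO libraries. All 6 PRC2 KO libraries stood far above all others of the experiment. The EZH2 KO libraries held 1220 counts against 4 in the controls, a ratio of 259.5 (95% counting interval 101 to 954, adjusted p = 0.000292), and the SUZ12 KO libraries 1656 counts, a ratio of 346 (135 to 1273, adjusted p = 0.000164). Intervals of such ratios cover counting error only.

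BMP2, a potent inducer of bone, measured 0.170, 0.0638 and 0 in the controls, 3.83, 0.705 and 9.86 in EZH2 KO and 2.38, 9.56 and 21.6 in SUZ12 KO. The clones of each genotype differed widely, but none reached down to a control. Counts were 301 and 663 against 4, ratios of 64.0 (24.8 to 236.5, adjusted p = 0.00865) and 138.6 (53.9 to 510.4, adjusted p = 0.00251). BMP4 had 30 and 64 counts against 0 (at least 8.51-fold and 17.9-fold higher against a floor of 3 counts over the group), and BMP8B had 49 and 193 counts against 1. BMP8B was not silent in all controls, however, with 17, 21 and 4 counts in those of experiment 1 (up to 1.11 CPM, within the 0.383 to 1.19 CPM of EZH2 KO). BMP6 measured 5.03, 5.81 and 3.37 in EZH2 KO and 6.50, 9.83 and 5.53 in SUZ12 KO, above the controls of experiment 2 in all 6. It was called in SUZ12 KO (log2 1.42 ± 0.32, adjusted p = 0.00849) and not in EZH2 KO (0.82, adjusted p = 0.104). BMP7 measured 11.3, 18.6 and 18.4 in EZH2 KO and 38.6, 19.1 and 24.1 in SUZ12 KO and was called in neither (adjusted p = 0.0777 and 0.382).

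TGFB1, on chromosome 19 (41301587 to 41353922, reverse strand), measured 117, 83.3 and 103 in the controls, 184, 165 and 222 in EZH2 KO and 141, 226 and 217 in SUZ12 KO. Each KO library was above each control, by log2 1.0 ± 0.22 (adjusted p = 0.00952) and 1.02 ± 0.22 (adjusted p = 0.0065). This holds within experiment 2, since the WT clone library of experiment 3 measured 183.5, above EZH2 KO 2 and SUZ12 KO 1. Without control 2 the EZH2 KO call was lost (adjusted p = 0.0588). TGFB2 measured 10.6, 12.8 and 4.76 in the controls, 2.16, 1.25 and 0.522 in EZH2 KO and 0.873, 0.857 and 0.805 in SUZ12 KO. It was low in all 6 KO libraries and called in SUZ12 KO alone (log2 -3.39 ± 0.89, adjusted p = 0.0196), a call that was lost without control 1, control 2 or any SUZ12 KO library (adjusted p up to 0.0712).

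TGFBR1, the type I receptor for TGF-beta, lies on chromosome 9 (99104038 to 99154192, forward strand). It measured 12.6, 15.8 and 5.93 in the controls, 39.5, 57.1 and 25.3 in EZH2 KO and 46.8, 35.6 and 26.2 in SUZ12 KO. The lowest KO library was above the highest control. The log2 fold changes were 1.92 ± 0.44 (adjusted p = 0.0133) and 1.73 ± 0.44 (adjusted p = 0.0165). Both calls were lost without control 1 or the parental library, and also without EZH2 KO 2 or SUZ12 KO 1 (adjusted p up to 0.0524 and 0.0607), and both were lost with the WT clone as the only control (adjusted p = 0.0522 and 0.06).

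ACVR1B, a type I receptor for activins, measured 43.4, 42.0 and 46.5 in the controls, 60.4, 52.5 and 63.3 in EZH2 KO and 57.6, 63.7 and 64.8 in SUZ12 KO. It was higher in 6 of 6 libraries by log2 0.51 ± 0.15 (adjusted p = 0.0405) and 0.57 ± 0.15 (adjusted p = 0.0192). The EZH2 KO call was lost in 10 of 12 fits without 1 library, all but those without STAG2 KO 5 or 2 (adjusted p up to 0.155), and the SUZ12 KO call without control 1, control 2, SUZ12 KO 2 or SUZ12 KO 3 (up to 0.0855). ACVR2B, a type II receptor, measured 16.6, 18.0 and 14.9 in the controls and 29.6, 27.8 and 22.4 in SUZ12 KO, all higher (log2 0.76 ± 0.17, adjusted p = 0.00857). ACVRL1 had 205 and 155 counts in EZH2 KO and SUZ12 KO against 3 in the controls, ratios of 58.1 (19.6 to 284) and 43.2 (14.5 to 212). These ratios hold for experiment 2 alone, since ACVRL1 measured 0.415 to 1.51 CPM in the controls of experiments 1 and 3, against 1.18 to 4.79 in the PRC2 KO libraries.

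BMPR2, the main type II receptor for BMPs, went the other way. It measured 56.5, 63.3 and 67.3 in the controls, 42.2, 45.4 and 31.8 in EZH2 KO and 39.4, 42.6 and 37.6 in SUZ12 KO. All 6 KO libraries were lower (log2 -0.56 ± 0.14, adjusted p = 0.0223, and -0.58 ± 0.14, adjusted p = 0.015). The EZH2 KO call was lost without control 2, the parental library or EZH2 KO 3 (adjusted p up to 0.0742), and the SUZ12 KO call without the parental library (adjusted p = 0.0532).

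SMAD6 measured 65.4, 49.7 and 65.4 in the controls, 21.1, 21.7 and 17.5 in EZH2 KO and 18.8, 16.4 and 19.2 in SUZ12 KO. All 6 KO libraries lay far under every control. The log2 fold changes were -1.49 ± 0.21 (adjusted p = 0.000921) and -1.66 ± 0.21 (adjusted p = 0.00036), and neither call was lost without any library. None of the 5 receptor SMADs, SMAD4, SMAD7 or the 4 ID genes was called in either KO by edgeR. LTBP3 measured 78.3, 59.9 and 68.6 in the controls and 39.9, 31.8 and 23.2 in SUZ12 KO, where it fell (log2 -1.05 ± 0.25, adjusted p = 0.0118). NOG was called higher in both, from at most 0.277 in the controls to 0.958 to 1.14 in EZH2 KO and 1.503 to 1.94 in SUZ12 KO. The remaining calls were LTBP1, lower in EZH2 KO, and LTBP2 and CHRD, higher in SUZ12 KO. The number of called members in EZH2 KO was 7 without control 1, 6 without control 2 and 21 without STAG2 KO 5, which shares the estimate of spread.

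**Figure D4:**
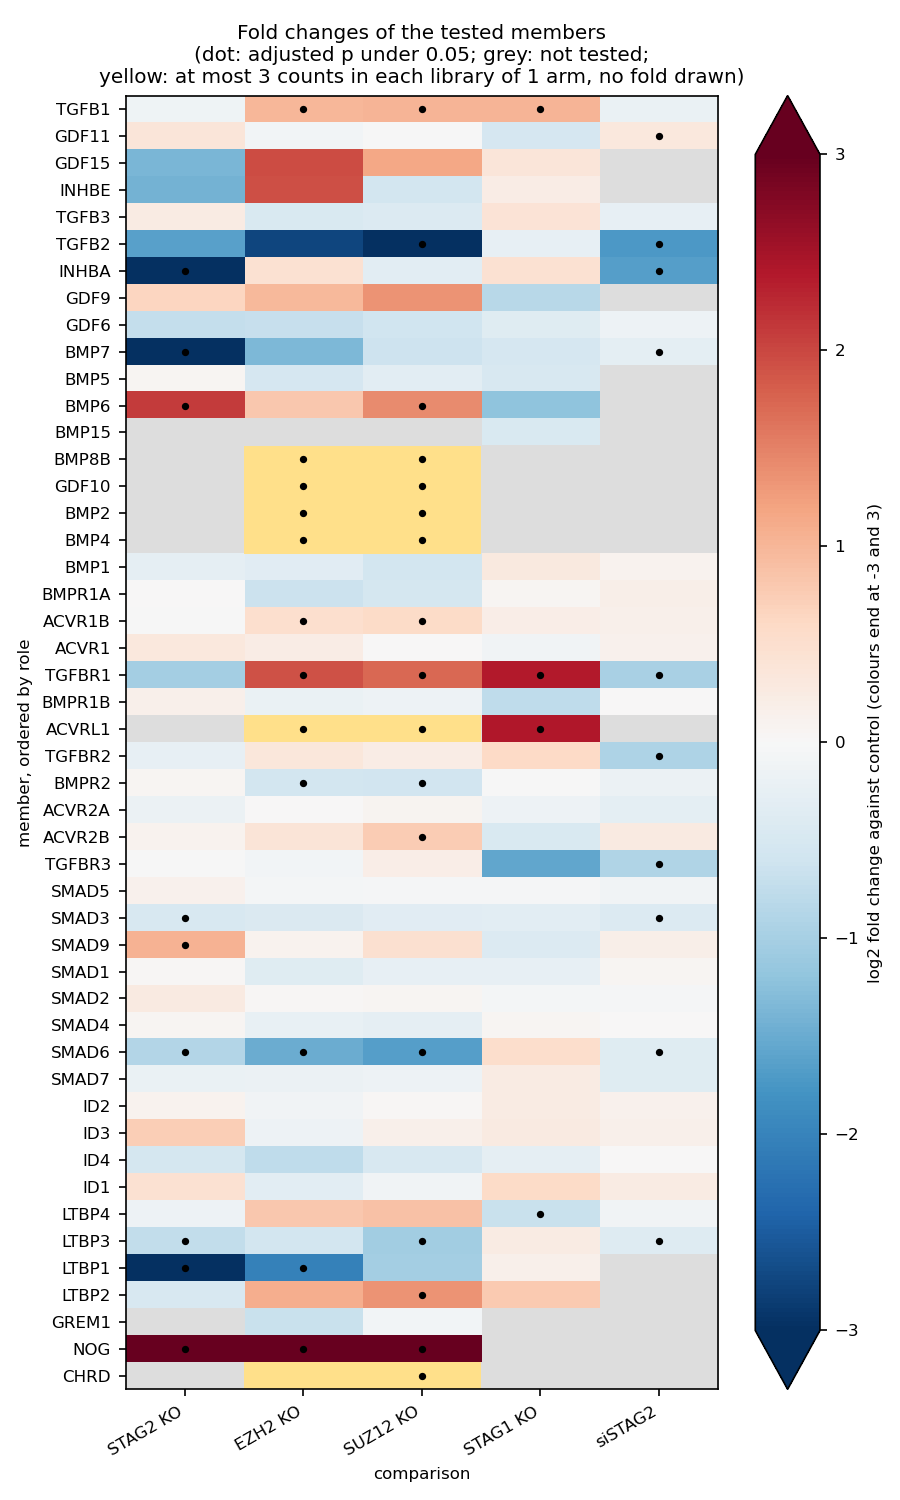
Log2 fold change against control (colour, ending at -3 and 3) of each member tested in at least 1 of 5 comparisons, with a dot where the adjusted p was under 0.05, grey where a gene was not tested and yellow where 1 arm had at most 3 counts in each library. SMAD6 is blue with a dot in STAG2 KO, EZH2 KO, SUZ12 KO and siSTAG2 (-0.89, -1.49, -1.66 and -0.37), and TGFBR1 is red with a dot in EZH2 KO, SUZ12 KO and STAG1 KO (1.92, 1.73 and 2.38).

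Set against each other directly, the PRC2 knockouts did not separate the members. Between SUZ12 KO and EZH2 KO, 0 of 47 members were higher (0.00661% of all genes) and 0 were lower (0% of all genes) by edgeR's quasi-likelihood test. There were 2 members at an unadjusted p under 0.05, and DESeq2 called 0. Thus, the calls made in SUZ12 KO alone, such as BMP6, ACVR2B and LTBP3, are not shown to be particular to it. The median difference was 0.09 over the members and -0.01 over all genes.

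STAG2 KO and PRC2 KO, by contrast, differed in 19 of 47 members in experiment 2. In STAG2 KO 7 were higher than in the mean of both PRC2 knockouts (13.8% of all genes) and 12 were lower (15.9% of all genes), and the higher share (14.9%) was near the background. The lower share (25.5%) is not read against it, because GDF10, BMP2, BMP4, BMP8B and ACVRL1 could enter the test only through the PRC2 KO libraries. The lower members were ligands (BMP2, BMP4, BMP7, BMP8B, GDF10, INHBA and TGFB1), receptors (ACVR1B, ACVRL1, TGFBR1 and TGFBR2) and LTBP2. The higher ones were BMP5, BMP6, BMPR1A, BMPR2, SMAD4, SMAD5 and SMAD9. SMAD6, low in all 3 genotypes, was in neither set.

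BMPR2 measured 71.4, 75.1 and 77.8 in STAG2 KO 3, 5 and 2, above the highest PRC2 KO library with 45.4 (log2 difference 0.90 ± 0.12, adjusted p = 0.000341). TGFB1, with 86.1, 55.1 and 65.2 in STAG2 KO, lay under the lowest PRC2 KO library with 141 (-1.50 ± 0.20, adjusted p = 0.000318), and TGFBR1 under the lowest with 25.3 (-2.58 ± 0.43, adjusted p = 0.00116). BMP7, with at most 3.98, lay under the lowest with 11.3 (-3.46 ± 0.51, adjusted p = 0.000564). GDF10 had 0 counts in STAG2 KO and 2876 in PRC2 KO, at least 443-fold lower (adjusted p = 6.21e-05). BMP2 had 1 count against 964, a ratio of 446 (79.8 to 17623). These differences kept their calls when any of the 12 libraries was left out, while ACVR1B lost its call without STAG2 KO 3 or 2 (adjusted p up to 0.065) and TGFBR2 without EZH2 KO 1, STAG2 KO 3 or STAG2 KO 5 (up to 0.0683).

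Loss of STAG1 was examined to see whether the other cohesin variant controls the same genes. In STAG1 KO cells TGFBR1 rose about 5-fold, TGFB1 doubled, ACVRL1 rose and LTBP4 fell. Of 41 members tested, 3 were higher (2.77% of all genes) and 1 was lower (2.50% of all genes), with 11 at an unadjusted p under 0.05 and 9 called by DESeq2. The share of higher calls was 7.32% and that of lower calls 2.44%, and medians were -0.02 for the members and 0.00 for all genes.

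TGFBR1 measured 7.08 (parental) and 5.03 in the controls of experiment 3 and 29.8, 36.7 and 28.1 in STAG1 KO 1, 5 and 7. All 3 KO libraries were high, including the library labelled STAG1 KO 1 whose STAG1 RNA was not low (log2 2.38 ± 0.22, adjusted p = 0.0181). TGFB1 measured 130 and 183.5 in the controls and 301, 311 and 343.5 in STAG1 KO (log2 1.02 ± 0.17, adjusted p = 0.0324). LTBP4, which tethers latent TGF-beta and supports elastic fibers, measured 394 and 378 and then 200.5, 263 and 261 (log2 -0.68 ± 0.13, adjusted p = 0.0467). ACVRL1 rose from at most 0.974 to 3.47 or more (log2 2.41 ± 0.37, adjusted p = 0.0279). None of these groups overlapped. With 2 controls the calls were fragile: without either control library 0 members were called, without STAG1 KO 5 or STAG1 KO 7 there was 1, and without STAG1 KO 1 there were 7. TGFBR1 lost its call without either control (adjusted p up to 0.218), and LTBP4 and TGFB1 without either control, STAG1 KO 5 or STAG1 KO 7 (up to 0.336 and 0.245).

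BMP7 measured 45.2 and 43.1 in these controls and 19.6, 30.6 and 42.6 in STAG1 KO, and was not called (adjusted p = 0.334). BMP6 measured 3.79 and 4.44 and then 0.5682, 1.09 and 3.64 (adjusted p = 0.338). SMAD6 measured 40.5 and 40.7 and then 57.0, 69.9 and 49.7, higher in all 3 KO libraries without passing the test (adjusted p = 0.106).

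Whether loss of STAG2 acts differently from loss of STAG1 was tested by subtracting their log2 fold changes within 1 fit of 16 libraries. Of 44 members tested, the STAG2 KO effect was higher for 2 (2.36% of all genes) and lower for 7 (3.75% of all genes), a share of 15.9%, which is not read against the background because GREM1 could enter the test only through experiment 2, where it was high. The median difference was -0.19 over the members and 0.00 over all genes. The effects differed by 3.28 ± 0.66 for BMP6 (adjusted p = 0.0105), -4.65 ± 0.81 for BMP7 (adjusted p = 0.00411) and -5.83 ± 0.79 for INHBA (adjusted p = 0.000841). INHBA had 0 to 4 counts in each STAG2 KO library, so the size of its difference rests on values near the detection floor. The effects differed by -3.44 ± 0.54 for TGFBR1 (adjusted p = 0.00234) and by -1.46 ± 0.32 for SMAD6 (adjusted p = 0.014). TGFB1 (-1.20 ± 0.32, adjusted p = 0.0405), TGFBR2 (-0.88 ± 0.24, adjusted p = 0.0399), GDF11 (0.82 ± 0.23, adjusted p = 0.0453) and GREM1 (adjusted p = 0.0217) completed the calls. Without either control library of experiment 3 the count was 3. The TGFBR1 difference held without any library, that of BMP6 was lost without the WT clone library of experiment 3 (adjusted p = 0.056), that of BMP7 without its parental library (0.0592) and that of SMAD6 without either (up to 0.115). The calls of GDF11, TGFB1 and TGFBR2 were lost in 12, 12 and 11 of 16 fits without 1 library, the controls of experiment 3 among them (adjusted p up to 0.253, 0.294 and 0.278).

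In the isogenic pairs each genotype had 1 library, so differences have no replicate check and were described by a 2-fold limit. In SK-N-MC cells, 5 of 50 members with at least 10 counts were past 2-fold higher without STAG2 (10.2% of all genes) and 9 lower (11.4% of all genes), with a median of -0.13 for the members and -0.01 for all genes. In A4573 cells, 3 of 53 were higher without STAG2 (7.76% of all genes) and 13 lower (14.1% of all genes), with medians of -0.24 and 0.00. Lower members made up 18.0% and 24.5%, but BMP4 and GREM1 in SK-N-MC cells and ACVRL1, GDF7, GDF15, INHBC and LTBP2 in A4573 cells reached 10 counts only in the library with STAG2, so that these shares are not read against the background. With at least 50 counts in the pair, 10 members were past 2-fold in A4573 cells. Higher members made up 10.0% in SK-N-MC cells, near the background, and 5.66% in A4573 cells. The share in A4573 cells is not read against the background, because ACVR1C and GDF10 reached 10 counts only in the library without STAG2.

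BMP7, with 3 counts with STAG2 and 2 without, was too low in SK-N-MC cells to show a loss. It measured 57.3 with and 40.7 without STAG2 in A4573 cells (log2 -0.49). BMP6 measured 44.4 with and 88.1 without STAG2 in SK-N-MC cells, just under 2-fold (log2 0.99), and 7.99 and 6.61 in A4573 cells. SMAD6 measured 92.6 with and 43.4 without STAG2 in SK-N-MC cells (log2 -1.09), whereas it measured 8.85 with and 15.7 without STAG2 in A4573 cells (0.82). BMP2 was lower without STAG2 in both pairs, with 55.6 and 17.9 in SK-N-MC cells (log2 -1.63) and 19.9 and 3.09 in A4573 cells (-2.67). TGFB3, the third TGF-beta ligand, was higher in both, with 9.89 and 42.3 (2.09) and 2.20 and 7.27 (1.70).

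In SK-N-MC cells GDF6 measured 344.5 with and 106 without STAG2 (log2 -1.70). TGFBR1 measured 13.4 and 28.5 (1.09) and LTBP1 18.2 and 53.8 (1.56). TGFBR2 and GDF10 each had 135 counts with STAG2 and 22 without, the same numbers for 2 genes in the deposited table. In A4573 cells the widest differences were those of GDF15, with 705 counts with STAG2 and 0 without (at least 225-fold lower), and INHBE, with 141 and 6.01 (log2 -4.54). LTBP4 measured 309.5 and 61.6 (-2.33), and the BMP targets ID1 71.3 and 26.8 (-1.41) and ID2 265 and 125 (-1.09), while ID3 with 83.5 and 90.7 (0.12) and ID4 with 62.3 and 54.7 (-0.19) were alike. TGFBR1 was alike there, with 52.1 and 57.9.

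**Figure D5:**
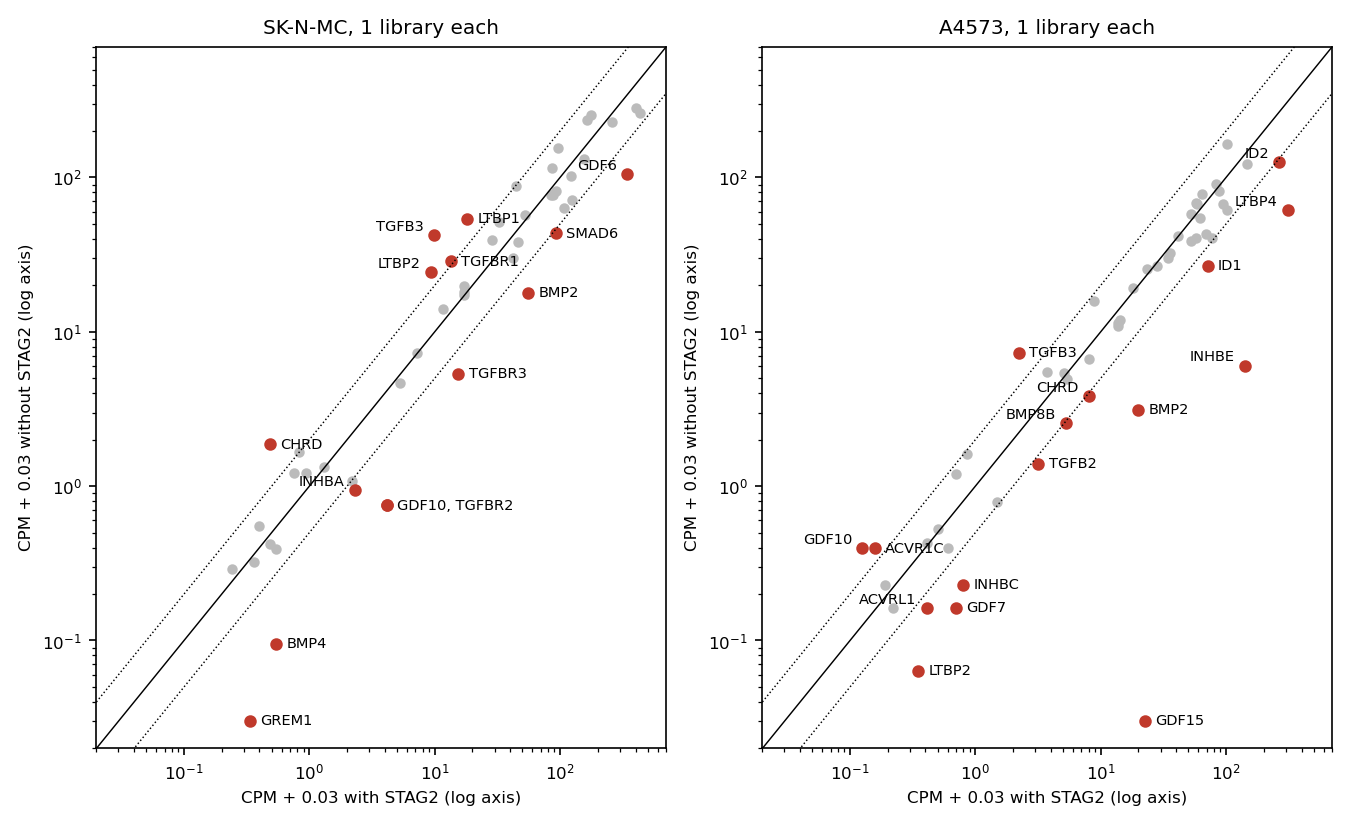
CPM plus 0.03 of each member with at least 10 counts in the library without STAG2 against the library with STAG2 (log axes, 1 library each), for SK-N-MC and A4573 cells, with a solid line at equal values and dotted lines at 2-fold. Members past 2-fold are red and named: BMP2 lies under and TGFB3 above the lines in both, and INHBE (141 with and 6.01 without STAG2) lies far under them in A4573 cells.

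Genes of the pathway that the rule did not take were followed from a list of 60, all found in the tables: 27 extracellular regulators and co-receptors, 17 cytoplasmic and nuclear regulators and 16 genes known to respond to TGF-beta or BMP. In STAG2 KO 4 of 44 tested were higher and 6 lower (6.67% and 5.76% of all genes), in EZH2 KO 4 and 8 of 51 (12% and 3.69%), in SUZ12 KO 7 and 12 of 51 (14.7% and 5.87%), in STAG1 KO 7 and 0 of 45 (2.77% and 2.50%) and in siSTAG2 6 and 9 of 40 (9.54% and 11%). These counts are not read against the background. HJV and MSX2 in EZH2 KO and HJV and NRROS in SUZ12 KO could enter the test only through PRC2 KO libraries, in which they were high. RUNX2 in STAG2 KO could enter it only through the controls. The responsive genes gave 0 higher and 4 lower of 14 in STAG2 KO, 3 and 2 of 15 in EZH2 KO, 3 and 5 of 15 in SUZ12 KO, 3 and 0 of 13 in STAG1 KO and 1 and 3 of 10 in siSTAG2. The counts hold RUNX2, lower in STAG2 KO, and MSX2, higher in EZH2 KO, and are likewise not read against the background. The median log2 fold changes of the responsive genes were -0.06 in STAG2 KO, 0.52 in EZH2 KO, -0.09 in SUZ12 KO, 1.07 in STAG1 KO and -0.41 in siSTAG2, and the difference between their counts was not tested.

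TGFBI, a matrix protein named for its induction by TGF-beta, measured 20.3, 65.1 and 99.1 (lowest, median and highest) in the 6 controls and 0.230 to 1.47 in STAG2 KO. All 5 KO libraries were far lower (log2 -5.54 ± 0.59, adjusted p = 0.000255). It measured 1.09 to 1.41 in EZH2 KO (log2 -5.16) and 0.215 to 7.42 in SUZ12 KO (-4.10), and fell from 914 to 955 normalized reads to 609 to 652 after knockdown (-0.57, adjusted p = 2.43e-07). MSX1, a homeobox gene downstream of BMP, measured 14.5 to 24.6 in the controls of experiments 1 and 2, 4.72 to 11.2 in STAG2 KO, 42.9 to 75.0 in EZH2 KO and 48.4 to 63.5 in SUZ12 KO, with no overlap. It fell in STAG2 KO (log2 -1.23 ± 0.24, adjusted p = 0.00693) and after knockdown (-0.63 ± 0.09, adjusted p = 8.47e-06), and rose in EZH2 KO (1.62 ± 0.31) and SUZ12 KO (1.496 ± 0.31). DLX5, a homeobox gene of bone formation, measured 52.8 to 84.8 in the controls and 12.7 to 36.1 in STAG2 KO, and fell in STAG2 KO (-1.41 ± 0.26, adjusted p = 0.0049) and after knockdown (-0.51 ± 0.08). It was also under the controls in every PRC2 KO library, with 29.4 to 32.2 in EZH2 KO (-0.79, not called) and 29.0 to 30.6 in SUZ12 KO. The SMAD corepressor TGIF1 fell in STAG2 KO, EZH2 KO, SUZ12 KO and after knockdown (-0.68, -0.53, -0.61 and -0.59), and its relative TGIF2 in EZH2 KO and SUZ12 KO (-0.42 and -0.56).

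FSTL1, a secreted follistatin-like protein, measured 551.5, 602.5 and 494 in the controls of experiment 2, 163, 124 and 77.7 in EZH2 KO and 87.8, 98.8 and 98.0 in SUZ12 KO. It fell in both (log2 -2.09 and -2.46) and after knockdown (-0.64), and rose in STAG1 KO (0.73). CER1, a secreted antagonist of BMP and nodal, fell in EZH2 KO (-1.14) and SUZ12 KO (-3.48) and rose after knockdown (0.56). The cell cycle inhibitor CDKN1A rose in EZH2 KO, SUZ12 KO and STAG1 KO (2.86, 2.35 and 1.999). CRIM1 and TWSG1, which bind BMPs outside the cell, and ATOH8 fell in both PRC2 knockouts, with log2 values from -1.48 to -0.66, and TWSG1 rose in STAG1 KO (0.52). The co-receptor ENG fell in SUZ12 KO (-1.07) and rose after knockdown (0.53) and in STAG2 KO (0.89, with overlap). CCN2, a matrix-associated growth factor, fell in SUZ12 KO (-2.75) and rose in STAG1 KO (1.98), and the SMAD corepressor SKIL rose in STAG1 KO (0.64) and fell after knockdown (-0.49). These comparisons of experiment 2 share their controls.

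Promoter sequences are shown for members whose changes recurred or were largest, from RefSeq on GRCh38.p14, as 300 bases read 5′ to 3′ on the gene's strand. Of the 61 members, 52 had at least 1 of 88 promoters in this set, and BMP7 and BMP2 were not among them. On both strands, letters of SMAD-binding elements (GGCGCC, GTCTAGAC and GTCTG) and of an EWS::FLI1 repeat (GGAAGGAA) were searched. GGCGCC was found in 22 of the 88 promoters and in 19.2% of all 35116 promoters of this length, GTCTAGAC in 1 and 0.202%, GTCTG in 41 and 45.3%, and GGAAGGAA in 2 and 3.67%. The promoter of SMAD6 (chr15:66701986-66702285, forward strand) was the only one of the members with the palindrome GTCTAGAC. Capitals mark the matches. That of TGFBR1 (chr9:99103802-99104101, forward strand, 1 of 8 start sites) held GGAAGGAA and 2 copies of GTCTG, while GGAAGGAA was at none of its other start sites. That of GDF10 (chr10:47299947-47300246, forward strand) held GGCGCC, and that of BMP6 (chr6:7725849-7726148, forward strand) none of these letters. A match is a description of the letters and not a sign that a factor binds there.
SMAD6: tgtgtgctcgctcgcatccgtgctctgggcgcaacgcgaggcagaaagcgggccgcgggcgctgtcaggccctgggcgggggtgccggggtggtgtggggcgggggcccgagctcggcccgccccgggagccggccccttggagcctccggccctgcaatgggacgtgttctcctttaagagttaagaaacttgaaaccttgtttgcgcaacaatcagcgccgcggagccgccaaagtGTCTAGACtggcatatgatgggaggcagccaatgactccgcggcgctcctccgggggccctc
TGFBR1: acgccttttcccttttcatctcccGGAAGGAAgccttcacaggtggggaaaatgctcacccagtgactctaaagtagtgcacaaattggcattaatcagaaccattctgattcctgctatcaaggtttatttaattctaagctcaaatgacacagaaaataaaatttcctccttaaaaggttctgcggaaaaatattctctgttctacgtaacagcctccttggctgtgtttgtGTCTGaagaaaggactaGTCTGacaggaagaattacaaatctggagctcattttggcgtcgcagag
GDF10: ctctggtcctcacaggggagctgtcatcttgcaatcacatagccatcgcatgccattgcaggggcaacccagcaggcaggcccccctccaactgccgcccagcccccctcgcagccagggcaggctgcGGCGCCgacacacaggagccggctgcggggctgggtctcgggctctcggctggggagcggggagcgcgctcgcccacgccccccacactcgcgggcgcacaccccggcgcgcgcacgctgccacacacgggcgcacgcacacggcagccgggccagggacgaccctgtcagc
BMP6: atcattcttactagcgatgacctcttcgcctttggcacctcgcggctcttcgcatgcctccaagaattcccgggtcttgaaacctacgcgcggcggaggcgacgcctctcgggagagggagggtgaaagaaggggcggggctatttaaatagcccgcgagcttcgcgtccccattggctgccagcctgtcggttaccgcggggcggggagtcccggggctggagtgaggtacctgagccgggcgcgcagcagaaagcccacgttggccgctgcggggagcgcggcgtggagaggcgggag

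Reads of overlapping genes limit what can be said of some members. GDF1, at 0 in every library, lies wholly within exons of CERS1, and TGFB1 shares 215 of its 3264 exon bases with HNRNPUL1 on the other strand. The p-values throughout measure the spread between clones or between libraries of a clone, and those of the knockdown the spread between transfections.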

How the data were processed

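The members and the lists of pathway and marker genes were chosen with earlier results of these data known. Per the deposited description, the authors made the count values by aligning reads of non-directional libraries to hg38 (TopHat2 2.0.0, Bowtie 0.12.7, SAMtools 0.1.16) and counting them per gene. The knockdown signal values were deposited by the authors as reads already normalized with DESeq2, and all of them (100% per library, tolerance 0.01) were recovered as whole reads.

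Counts of the clones were fitted with edgeR 4.0.16 (quasi-likelihood test, trimmed-mean scaling, default expression filter) in R 4.3.3, with experiments 1 and 2 together and an experiment term for STAG2 KO, 12 libraries of experiment 2 for EZH2 KO and SUZ12 KO, and 5 for STAG1 KO. The knockdown was fitted with limma 3.58.1 (trend) on log2 of the value plus 1, for genes with a mean of at least 10. All p-values were adjusted by Benjamini and Hochberg over all genes tested, and members were called at 0.05. On recovered reads edgeR called 2503 genes, where limma called 1151 higher and 1325 lower. Values in every library were given for members called in at least 1 comparison with a control in which the groups did not overlap and the mean was at least 5 CPM or, after knockdown, 50 reads. Other members were given by range or count. Spike-in reads made up 0% in the knockdown libraries, the only ones for which they were counted, and 0 columns were left out. Alternatives were DESeq2 1.42.0, other thresholds, other controls and fits without each library.

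Marker lists were Ewing sarcoma cells (NKX2-2, NR0B1, STEAP1, CD99, PRKCB, LIPI, CCND1, PAX7, CCK, JAK1), fibroblasts or stroma (COL1A1, COL1A2, COL3A1, LUM, DCN, PDGFRB) and epithelium (EPCAM, KRT8, KRT18, CDH1). A further marker list is not reported here.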

Additional observations from a re-analysis of the deposited data

Results flagged for a closer look

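Of 31 groups examined for a single distant library, 3 passed Dixon's limit, where chance alone gives about 1 in 20. BMP2 measured 0.0552 CPM in STAG2 KO 2 of experiment 2 and 0 in the other STAG2 KO libraries, a single count. BMP7 measured 3.98 in the same library, against at most 1.09 in the others. TGFBR1 measured 10.2 in STAG2 KO 5 of experiment 2, against at most 5.23 in the others. No library was removed for this.

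The log2 fold change in STAG2 KO minus that in STAG1 KO was 3.28 for BMP6, -4.65 for BMP7, 0.82 for GDF11, -1.46 for SMAD6, -1.20 for TGFB1, -3.44 for TGFBR1 and -0.88 for TGFBR2, all by edgeR's quasi-likelihood test. GDF11, TGFB1 and TGFBR2 lost the call in most fits without 1 library.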

How the results depend on the processing

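Members called in STAG2 KO numbered 9, 18 in experiment 1 alone, 12 by DESeq2 and 6 to 16 without each library. For EZH2 KO they numbered 12, 18 by DESeq2 and 6 to 21 without each library. For SUZ12 KO they numbered 17, 19 by DESeq2 and 12 to 18 without each library. STAG1 KO gave 4, 9 by DESeq2 and 0 to 7 without each library. The difference between STAG2 KO and STAG1 KO gave 9, 12 by DESeq2 and 3 to 13 without each library. WT clone against parental cells gave 4, 4 by DESeq2 and 1 to 6 without each library. STAG2 KO against PRC2 KO gave 19, 25 by DESeq2 and 16 to 26 without each library, and SUZ12 KO against EZH2 KO 0 in every fit.

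For siSTAG2 they numbered 10, 6 at a mean value of at least 50, 7 to 9 without each library, and 11 with replicate number as a block, of which 10 were shared. Libraries of the same number were barely correlated after removal of the group means (0.026, 0.037 and 0.004), though 5 of 6 were closest to their own number. Past 2-fold in A4573 cells were 16, or 10 at 50 counts or more.

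Of 787 alternative values of the 50 fold changes of named members, 661 kept their direction and side, 126 were weaker and 0 were reversed.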
